A study of Mus musculus with 48 samples.

Results

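The 10 genes described here, Stra8, Rec8, Smc1b, Sycp1, Sycp2, Sycp3, Tex12, Hormad1, Spo11 and Dmc1, encode a regulator of meiotic entry and structural or enzymatic parts of the chromosomes of meiotic prophase. All 10 were found among the 22173 genes of the stage counts and, by Ensembl identifier, among the 32285 genes of the single-cell table, whereas 5 of them (Rec8, Smc1b, Sycp2, Sycp3 and Dmc1) were listed among the 13682 genes of the FPKM table. The study asked whether gonadal somatic cell-like cells (GSCLCs), differentiated from mouse embryonic stem cells (ESCs), can provide the surroundings in which primordial germ cells enter meiosis. The members were therefore read here in the somatic cells and in the GSCLCs themselves, and the 8 libraries of cells separated from aggregates were not analysed here.

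All samples were from C57BL/6 mice or from female ESCs labelled with that strain. The stage libraries were bulk RNA-seq of gonadal somatic cells, with 2 libraries per stage. The cells came from female gonads of the embryonic stages E12.5, E13.5 and E16.5 and from the ovary of mice 6 weeks old (P6w). E12.5_GC, a separate set of 3 libraries in the FPKM table, came from E12.5 female gonads. According to the methods of the study, dissociated E12.5 gonads were passed over magnetic beads carrying an antibody against SSEA1, a surface marker of primordial germ cells, and the somatic cells are what remained; a bead separation is also named for E13.5 in a single-cell assay not analysed here, and how germ cells were removed from the bulk samples of E13.5, E16.5 and P6w is not given in the sources used here. GSCLCs were induced with no small molecule (Con), with vitamin C (Vc), with AM580, an agonist of the retinoic acid receptor, or with both (V580), and were collected at 24 h and 48 h with 2 libraries each. V580 cells were also collected at day 4, 6, 8 and 10 with 3 libraries each, and V580 day 6 cells gave 1 single-cell library made with the 10x platform.

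In the mouse fetal ovary, retinoic acid and other signals switch on Stra8 in germ cells, which then replicate their DNA for the last time before meiosis and enter prophase. The sister chromatids are held by meiosis-specific cohesin. Double-strand breaks are made and are repaired as the homologues pair, and the synaptonemal complex forms between the homologues. In somatic cells and in pluripotent cells many of these genes are kept silent by promoter methylation and by repressor complexes that hold E2F6, MGA and MAX.

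Somatic and germ cell markers were read first. The stage libraries held 12694769 to 22259044 counts. The gonadal somatic markers Wt1 and Gata4 were abundant in all 6 fetal libraries (3371 to 11485 counts of Wt1), and the adult granulosa cell markers summed to 34290 and 34040 counts per 1000000 (CPM) at P6w against at most 257 CPM before birth. Germ cell transcripts were detected at every stage. Dazl, a germ cell RNA-binding protein, had 85 and 82 counts (E12.5), 302 and 245 (E13.5), 1152 and 920 (E16.5) and 45 and 58 (P6w). Over the 11 germ cell markers the level summed to 26.0 and 26.2 CPM in the E12.5 libraries and 54.9 and 52.8 in those of E13.5. It was 204 and 263 CPM in the E16.5 libraries and 27.0 and 27.5 in those of P6w. Dnd1 alone had a mean of 13.7 CPM at E12.5 and 18.4 at P6w. The 11 oocyte markers summed to 150 and 59.2 CPM in the P6w libraries, against 16.1 to 28.7 CPM in the fetal libraries. The E12.5 libraries, labelled female, also held Y-linked transcripts, Ddx3y among them, that summed to 10.5 and 9.41 CPM, against at most 0.225 CPM in any other stage library. The source of these transcripts was not tested. Whatever goes with them cannot be told apart from stage in a comparison of another stage with E12.5. In bulk RNA, fewer cells of a type and less RNA per cell cannot be told apart.

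The promoters of 9 members were found in the RefSeq table of mouse build GRCm38.p6, and Spo11 was not. In the 250 bases before the start, the E-box CACGTG, a sequence that MAX-containing dimers can bind, was found in 4 of 9 members (Sycp1, Sycp3, Tex12 and Hormad1; 44.4%), against 6.05% of 27025 promoters and 14.3% of the 28 matched promoters of other meiotic prophase genes. The E2F-type sequence TCCCGC, read on either strand, was found in 6 of 9 members (66.7%) against 16.9% of all promoters and 35.7% of the other meiotic genes. The hexamer AGGTCA, the unit to which retinoic acid receptors bind in pairs, was found on either strand in 3 of 9 (33.3%, against 13.8%), and CNCCTCAG, a motif linked to STRA8 binding, in 0 of 9 (against 6.39%). The members' median GC content was 58.0% with 12 CpG dinucleotides, against 52.0% and 6 over all promoters, and this difference moves with the GC-rich motifs. A match of letters is a description of the sequence and not of a bound site. The sequences below are given 5′ to 3′ on the strand of the gene, with the motif matches in capitals, for the entry regulator (Stra8, chr6:34920698-34920947, plus strand), the cohesin subunits (Rec8, chr14:55617916-55618165, plus strand; Smc1b, chr15:85131958-85132207, minus strand) and members with an E-box (Sycp3, chr10:88459337-88459586, plus strand; Tex12, chr9:50561269-50561518, minus strand; Hormad1, chr3:95559427-95559676, plus strand).
Stra8: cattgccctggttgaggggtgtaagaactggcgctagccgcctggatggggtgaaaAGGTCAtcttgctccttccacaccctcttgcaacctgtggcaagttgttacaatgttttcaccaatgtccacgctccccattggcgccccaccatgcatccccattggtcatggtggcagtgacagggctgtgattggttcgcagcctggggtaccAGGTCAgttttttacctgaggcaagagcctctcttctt
Rec8: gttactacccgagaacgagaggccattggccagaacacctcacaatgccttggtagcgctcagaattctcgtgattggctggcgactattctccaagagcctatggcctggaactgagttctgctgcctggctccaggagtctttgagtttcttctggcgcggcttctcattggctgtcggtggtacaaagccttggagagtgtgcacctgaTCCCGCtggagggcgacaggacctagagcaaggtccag
Smc1b: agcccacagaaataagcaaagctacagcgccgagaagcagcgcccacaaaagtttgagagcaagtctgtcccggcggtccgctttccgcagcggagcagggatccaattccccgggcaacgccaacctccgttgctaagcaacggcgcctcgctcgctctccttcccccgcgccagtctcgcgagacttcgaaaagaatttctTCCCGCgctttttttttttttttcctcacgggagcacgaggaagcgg
Sycp3: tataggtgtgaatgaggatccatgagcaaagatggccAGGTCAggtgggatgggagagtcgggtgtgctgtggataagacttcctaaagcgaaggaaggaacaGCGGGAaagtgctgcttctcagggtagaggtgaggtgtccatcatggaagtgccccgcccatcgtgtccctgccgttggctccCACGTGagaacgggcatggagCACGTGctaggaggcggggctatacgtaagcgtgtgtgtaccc
Tex12: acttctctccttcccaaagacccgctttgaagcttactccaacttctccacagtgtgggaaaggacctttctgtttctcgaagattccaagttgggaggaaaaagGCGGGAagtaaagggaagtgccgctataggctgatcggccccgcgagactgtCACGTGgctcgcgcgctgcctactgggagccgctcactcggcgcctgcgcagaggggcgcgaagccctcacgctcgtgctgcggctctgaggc
Hormad1: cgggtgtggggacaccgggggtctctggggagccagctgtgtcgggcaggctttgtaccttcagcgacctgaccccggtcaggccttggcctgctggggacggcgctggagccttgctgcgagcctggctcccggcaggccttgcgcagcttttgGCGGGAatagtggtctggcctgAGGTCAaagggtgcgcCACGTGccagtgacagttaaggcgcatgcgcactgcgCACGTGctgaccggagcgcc

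Stra8 carried only AGGTCA, at 194 and 38 bases before the RefSeq start, and no E-box. Sycp3 held E-boxes at 64 and 43 bases before the start and Hormad1 at 57 and 20 bases, each with an E2F-type match and an AGGTCA besides. Rec8 and Smc1b held an E2F-type match at 38 and 47 bases and no E-box.

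Across the stages of gonadal somatic cells, 9 members had their highest level at E16.5 and Rec8 did not. Stra8, Smc1b, Sycp1, Tex12 and Hormad1 were already higher at E13.5 than at E12.5, and by P6w all 10 were lower than at E16.5. The test was edgeR's quasi-likelihood test on the counts of the 8 libraries with Benjamini-Hochberg adjustment over 16398 genes; a gene was called at an adjusted p below 0.05. Levels are CPM of the library, and changes are log2 fold changes with their standard error (SE).

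**Figure D1:**
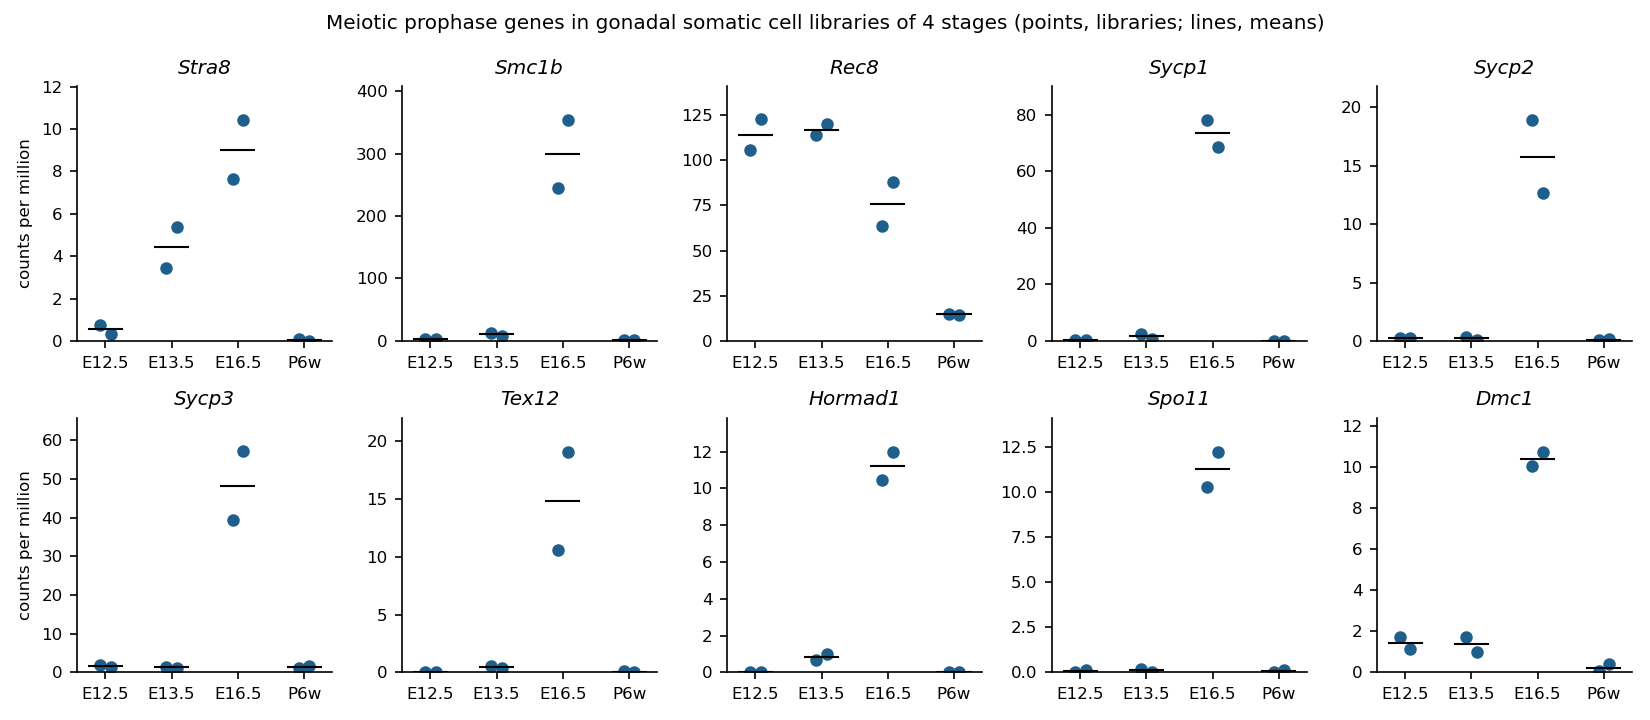
CPM of the 10 members (panels, each with its own vertical axis from 0) in gonadal somatic cells of 4 stages (E12.5 to P6w); points are the 2 libraries of a stage and lines their mean. In 9 panels the E16.5 libraries stand above the rest, whereas Rec8 is at 105 to 123 CPM in the E12.5 and E13.5 libraries and lower at E16.5 and P6w.

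Stra8, which encodes the retinoic acid-induced regulator of meiotic entry, had 15 and 6 counts (E12.5), 77 and 106 (E13.5), 161 and 165 (E16.5) and 1 and 0 (P6w). The stages did not overlap. The mean level went from 0.550 CPM (SD 0.309, n = 2) over 4.41 (SD 1.35) to 9.03 CPM (SD 1.96) through the 3 fetal stages. Stra8 rose from E12.5 to E13.5 (log2 fold change 3.29, SE 0.451, edgeR adjusted p 4.72e-05), and the further difference from E13.5 to E16.5 was not called (adjusted p 0.0734). The other 9 members were all called between E13.5 and E16.5, 8 higher and 1 lower, where 54.1% of all genes were called.

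Rec8, the meiosis-specific kleisin subunit of cohesin, was the exception among the 10. It had 2059 and 2220 counts (E12.5), 2533 and 2370 (E13.5), 1339 and 1391 (E16.5) and 192 and 183 (P6w). It was already at 114 CPM at E12.5 (SD 12.3, n = 2), more than the other 9 members together, and its E16.5 libraries lay below those of E12.5 and E13.5 without overlap. Rec8 fell by 0.52 on the log2 scale from E12.5 to E16.5 (SE 0.157, edgeR adjusted p 0.0169) and by 0.89 from E13.5 to E16.5 (SE 0.158, adjusted p 0.000254). The fall from E12.5 was not called without E12.5 library 2 (log2 fold change -0.42, adjusted p 0.142) or without E16.5 library 1 (-0.27, adjusted p 0.0823).

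Smc1b, the meiotic paralogue of the general cohesin subunit Smc1a, had 49 and 51 counts (E12.5), 295 and 156 (E13.5), 5165 and 5596 (E16.5) and 24 and 17 (P6w). It rose at both steps, with log2 fold changes of 2.32 to E13.5 (SE 0.282, edgeR adjusted p 1.88e-05) and 4.56 from E13.5 to E16.5 (SE 0.241, adjusted p 6.85e-09), and reached 299 CPM at E16.5 (SD 76.5, n = 2). The somatic counterpart Smc1a had 7932 and 6944 counts at E12.5 and 6957 and 3825 at E16.5, and was lower at E16.5 (log2 fold change -0.41, SE 0.128, edgeR adjusted p 0.0203). Of the 6 general cohesin and recombinase genes listed beside the members, 0 were higher and 1 was lower at E16.5 than at E12.5.

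Of the 4 synaptonemal complex genes, Sycp1 and Tex12 were called at E13.5 and again at E16.5, and Sycp2 and Sycp3 at E16.5 alone; whether the members differ in timing was not tested. Sycp1, the transverse filament that joins the paired axes, had 6 and 3 counts (E12.5), 55 and 14 (E13.5), 1645 and 1089 (E16.5) and 1 and 0 (P6w). It was higher at E13.5 (log2 fold change 3.05, SE 0.589, edgeR adjusted p 0.000694) and higher again at E16.5 than at E13.5 (5.23, SE 0.336, adjusted p 3.74e-08). Tex12, a component of the central element, was listed at 0 in both E12.5 libraries, with 13 and 8 counts in those of E13.5, 222 and 302 in those of E16.5 and 2 and 0 in those of P6w. Against a floor of 3 counts over the E12.5 libraries it was at least 6.26-fold higher at E13.5 (edgeR adjusted p 0.00208) and at least 178-fold higher at E16.5 (adjusted p 3.15e-07).

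Sycp2 and Sycp3 form the axial and later the lateral elements, and neither was called between E12.5 and E13.5. Sycp2 had 5 and 5 counts (E12.5), 7 and 2 (E13.5), 398 and 200 (E16.5) and 1 and 2 (P6w). Sycp3 had 38 and 23 counts (E12.5), 34 and 24 (E13.5), 832 and 905 (E16.5) and 15 and 20 (P6w). Both were separated from all other libraries at E16.5 only, with log2 fold changes from E13.5 to E16.5 of 5.90 for Sycp2 (SE 0.437, edgeR adjusted p 1.28e-07) and 4.87 for Sycp3 (SE 0.291, adjusted p 2.17e-08). Of the 1264 exonic bases of Sycp3, 660 (52.2%) lie opposite exons of Chpt1, a phospholipid synthesis gene on the other strand, and the library kit does not mark strand, so that reads of the shared bases cannot be told apart. Chpt1 had 475 and 364 counts (E12.5), 269 and 204 (E13.5), 1169 and 885 (E16.5) and 158 and 189 (P6w). The mean CPM at E16.5 was 35.2 times that at E13.5 for Sycp3 and 4.97 times for Chpt1.

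Of the genes of the axis and of recombination, Hormad1 was already called at E13.5, and Spo11 and Dmc1 were not. Hormad1, which binds unsynapsed axes, had 0 counts in both E12.5 and both P6w libraries, 15 and 20 in those of E13.5 and 220 and 190 in those of E16.5. It was at least 10.4-fold higher at E13.5 (edgeR adjusted p 0.000158) and at least 139-fold higher at E16.5 than at E12.5 (adjusted p 2.94e-07), against a floor of 3 counts over the E12.5 libraries. Spo11, whose product makes the double-strand breaks, had 0 and 2 counts (E12.5), 4 and 1 (E13.5), 217 and 194 (E16.5) and 0 and 2 (P6w). Its E13.5 and E12.5 libraries overlapped, whereas its count share at E16.5 was 209 times that at E12.5 (95% exact interval 57.6 to 1730, which pools the counts of both libraries and covers counting error only; edgeR adjusted p 5.74e-07). Dmc1, the recombinase that pairs broken ends with the homologue, had 34 and 21 counts (E12.5), 38 and 20 (E13.5), 211 and 170 (E16.5) and 1 and 5 (P6w). From E13.5 to E16.5 it rose by 2.65 on the log2 scale (SE 0.379, edgeR adjusted p 3.73e-05), the smallest of the 8 rises at this step.

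Counted over the members, 5 of 10 were called higher and 0 lower at E13.5 than at E12.5, where 45.9% of all genes were called and 23.8% were higher. At E16.5 against E12.5, 9 were higher and 1, Rec8, lower, where 37.6% were called and 20.5% were higher. The median log2 fold change of the 10 members was 1.84 at E13.5 and 6.40 at E16.5, against 0.03 and -0.01 over all genes tested, and was the same with the genes at 0 set at their bound. Sycp2 and Spo11 passed the filter on low counts only through the E16.5 libraries, and Sycp1, Tex12 and Hormad1 only through the E13.5 or E16.5 libraries. These contrasts share the E12.5 libraries, the ones that held Y-linked transcripts. What goes with those transcripts cannot be told apart from stage in them.

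The E16.5 levels were ordered per kilobase of exon. Smc1b was highest, with 60.6 and 87.3 CPM per kb, followed by Sycp3 (31.3 and 45.2), Rec8 (21.7 and 29.9), Sycp1 (22 and 19.3) and Tex12 (10.4 and 18.8). Hormad1 (6.04 and 6.94), Stra8 (4.24 and 5.78), Dmc1 (4.11 and 4.41), Spo11 (2.63 and 3.13) and Sycp2 (3.17 and 2.12) were lower. The libraries of Rec8 and Sycp1, of Stra8 and Dmc1, and of Spo11 and Sycp2 overlapped, and other neighbours in this order did not. At E12.5 the order was another, with Rec8 at 38.9 CPM per kb and each of the other 9 at a mean of 1.27 or less.

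At P6w 0 members were called higher than at E12.5, and 3 were lower. Between P6w and E16.5 all 10 were called lower (56.1% of all genes called, 29.8% lower). Rec8 kept the largest share of its E16.5 level, 19.4%, and the other 9 kept at most 2.84%. Smc1b fell by 7.38 on the log2 scale (SE 0.309, edgeR adjusted p 3.96e-11). Stra8 and Sycp1 were left with 1 count in the P6w libraries, a count share lower by a ratio of 225 for Stra8 (95% exact interval 40.1 to 8920) and of 1890 for Sycp1 (339 to 74600). These intervals cover counting error only, and replicate libraries differed by more than that. Against E12.5, Rec8 (log2 fold change -2.73, SE 0.177, edgeR adjusted p 5.43e-09), Dmc1 (-2.37, SE 0.626, adjusted p 0.00503) and Stra8, with a count share lower by a ratio of 14.2 (95% exact interval 2.29 to 589; adjusted p 0.0169), were lower, 3 of 10 against 52.9% of all genes called and 27.5% lower. Against E13.5, 7 of 10 were lower (59.7% called and 31% lower). Leaving out P6w library 1 ended the call of Dmc1 against E12.5, leaving out P6w library 2 or E12.5 library 1 ended that of Stra8 against E12.5, and leaving out P6w library 2 or E13.5 library 1 ended that of Tex12 against E13.5.

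The germ cell markers were read along the stages beside the members, and not all of them moved in the same direction. At E16.5 against E12.5, 7 of 11 germ cell markers were higher and 0 lower, where 20.5% of all genes were higher. Dazl rose by 3.73 on the log2 scale (SE 0.193, edgeR adjusted p 4.70e-09) and Ddx4, a germ cell RNA helicase, by 3.4 (SE 0.373, adjusted p 5.94e-06). From E13.5 to E16.5 the mean CPM of Dazl was 4.34 times higher and that of Ddx4 6.06 times higher. Among the members the ratio was 46.2 for Sycp1, 28.3 for Smc1b, 7.63 for Dmc1, 2.05 for Stra8 and 0.648 for Rec8. Of the other germ cell markers, Tex101 went from a mean of 2.62 to 97.05 CPM and Mael from 1.32 to 29.29 CPM. The means of Dppa3 (4.11 to 1.18 CPM), Nanos3 (1.55 to 0.806) and Dnd1 (23.8 to 11.9) were lower at E16.5 than at E13.5. The part of germ cell RNA in the members' levels was not tested. The stage libraries carry the tags L5 (both E12.5, both E13.5 and E16.5 library 1) and L1 (E16.5 library 2 and both P6w) in their descriptions. In CPM, 9 members were higher in each E16.5 library than in every E12.5 and E13.5 library, and Rec8 was lower. This includes E16.5 library 1, which carries L5 as the E12.5 and E13.5 libraries do. Of all genes, 56.7% did not overlap between E16.5 and E12.5, and 63.5% between E16.5 and E13.5. All 10 members were lower in each P6w library than in each E16.5 library, including E16.5 library 2, tagged L1 as P6w is, where 62.3% of all genes did not overlap. Tag and stage cannot be told apart between P6w and the E12.5 or E13.5 libraries.

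Other genes of meiotic prophase were counted beside the members. Of the 35 tested, 10 were higher and 3 lower at E13.5 than at E12.5, where 23.8% of all genes were higher. At E16.5 against E12.5, 29 were higher and 1 lower, where 20.5% of all genes were higher and 17.1% lower. At P6w against E16.5, 0 were higher and 30 lower, where 29.8% of all genes were lower. Some of these genes, Meiob and Majin among them, reached the filter minimum of 0.532 CPM only at E16.5. Their median log2 fold change at E16.5 against E12.5 was 2.98. Meiob, which binds single-stranded DNA during repair, had 0 counts in both E12.5 libraries and 113 and 88 at E16.5. Majin, which attaches telomeres to the nuclear envelope, had 1 and 0 counts at E12.5 and 158 and 186 at E16.5. Stag3, the cohesin subunit that partners with Rec8 and Smc1b, had 46 and 55 counts at E12.5 and 292 and 376 at E16.5. Trip13, which removes HORMAD proteins from synapsed axes, was the 1 gene lower at E16.5, with 546 and 449 counts at E12.5 and 375 and 250 at E16.5.

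The 10 genes outside the members whose level followed the members' mean most closely were ranked by Pearson's r over the 8 libraries among 14441 genes. Tmem178 (r = 0.996), Tex101 (0.995), 1700013H16Rik (0.994), Cavin3 (0.994) and Sys1 (0.994) were nearest, followed by Rnaset2a, Stom, Syce1, Pgp and 0610012G03Rik, the last at 0.991. Tex101 is a germ cell surface protein and Syce1 a central element protein of the synaptonemal complex. The 8 libraries fall into 4 stages, and r is given as a description. Within the members, r with the mean of the other 9 was 0.343 for Rec8, 0.854 for Stra8 and 0.899 to 0.988 for the other 8.

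In GSCLCs and their controls, Rec8 was the member that rose with AM580 and V580 against Con at 48 h, and at 24 h it was not called. Smc1b at both times and Sycp3 at 24 h were higher with Vc and with V580 than in Con, by less than the fold that was required. Values are FPKM (fragments per kilobase of exon per 1000000 fragments) as the authors computed them, and the test was limma on log2(FPKM + 1) with Benjamini-Hochberg adjustment over 10644 genes; a gene was called at an adjusted p below 0.05 and at least 2-fold on that scale, which understates the change of genes at low FPKM. Sycp2 did not pass the filter of 1 FPKM in 2 libraries, so that 4 of the 5 listed members were tested.

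**Figure D2:**
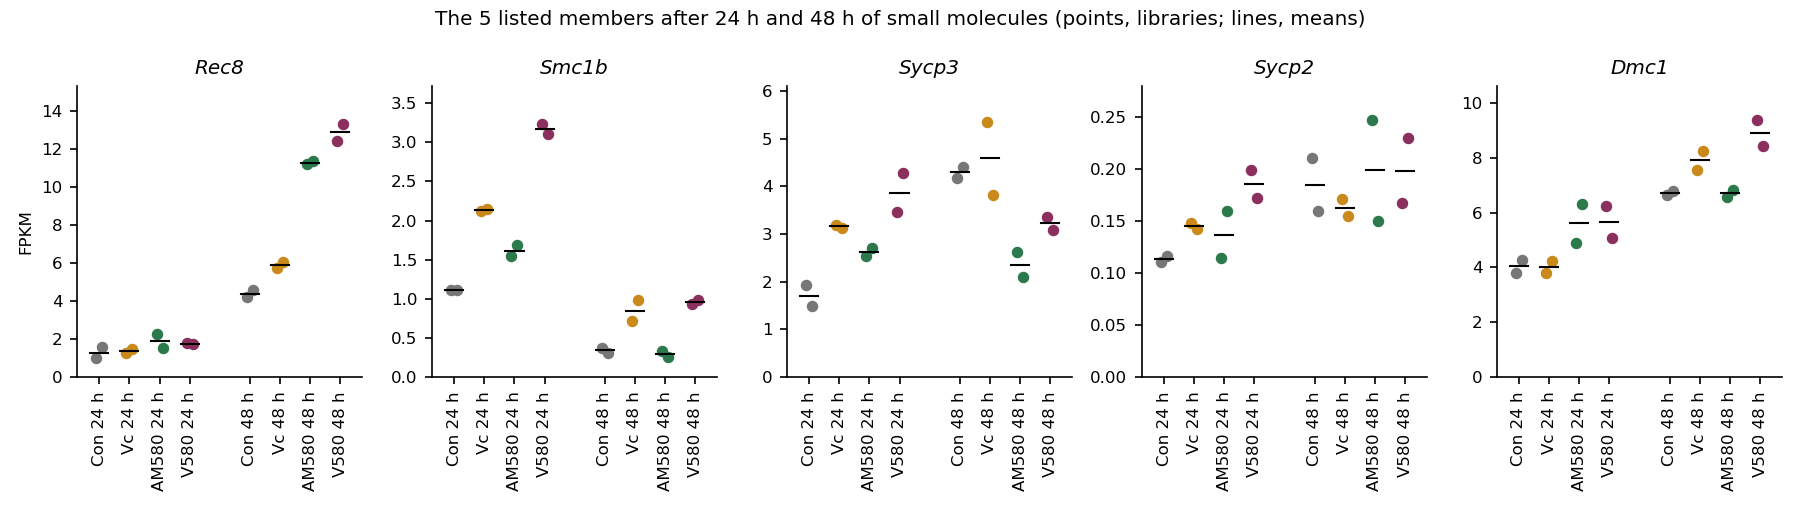
FPKM of Rec8, Smc1b, Sycp3, Sycp2 and Dmc1 (panels, each with its own vertical axis from 0) in Con, Vc, AM580 and V580 cells at 24 h and 48 h; points are the 2 libraries of a group and lines their mean. Rec8 is highest at 48 h with AM580 and V580 (11.2 to 13.3 FPKM), whereas Smc1b is highest at 24 h with V580 (3.11 and 3.23 FPKM).

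Rec8 at 24 h had 1.01 and 1.56 FPKM in Con, 1.24 and 1.45 with Vc, 2.26 and 1.54 with AM580 and 1.78 and 1.71 with V580. At 48 h it had 4.18 and 4.56 FPKM in Con, 5.72 and 6.04 with Vc, 11.2 and 11.4 with AM580, and 12.4 and 13.3 with V580. The 4 groups lay close together at 24 h and were apart at 48 h, in the order Con, Vc, AM580, V580 without overlap. At 48 h Rec8 was higher with AM580 than in Con (log2 fold change 1.19, SE 0.113, limma adjusted p 5.58e-07) and with V580 (1.37, SE 0.113, adjusted p 1.30e-07), the 1 of 4 members called in each, where 3.23% and 3.18% of all genes were called. With Vc against Con 0 of 4 were called at 48 h (0.047% of all genes), as with V580 against AM580 (0.263%); without the 2-fold requirement these were 1 (Smc1b; 12.4% of all genes) and 2 (Smc1b and Dmc1; 19.2%). At 24 h 0 of 4 were called with Vc (0.0846% of all genes), AM580 (0.404%) or V580 (0.695%) against Con, or with V580 against AM580 (0.0658%), whereas without the 2-fold requirement 2, 3, 3 and 2 were, beside 13.6%, 14.8%, 29% and 14.8% of all genes. The effect on Rec8 was larger at 48 h than at 24 h by 1.09 on the log2 scale for V580 (SE 0.16, limma adjusted p 0.000121), which was called, and by 0.85 for AM580 (adjusted p 0.000959), which was under 2-fold. Rec8 also rose between 24 h and 48 h in Con (log2 fold change 1.24, limma adjusted p 1.68e-07), with AM580 (2.09, adjusted p 5.00e-10) and with V580 (2.34, adjusted p 1.26e-10), where 7.72%, 7.37% and 8.01% of all genes were called.

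Smc1b took the opposite course in time. At 24 h it had 1.12 and 1.11 FPKM in Con, 2.12 and 2.15 with Vc, 1.55 and 1.68 with AM580, and 3.23 and 3.11 with V580. At 48 h it had 0.373 and 0.305 FPKM in Con, 0.710 and 0.981 with Vc, 0.327 and 0.261 with AM580, and 0.927 and 0.987 with V580. Every 24 h library was above every 48 h library, and within each time the Vc and V580 libraries lay above those of Con and AM580. Between 24 h and 48 h Smc1b was lower with AM580 (log2 fold change -1.02, SE 0.0725, limma adjusted p 1.20e-08) and with V580 (-1.09, adjusted p 4.79e-09). It was lower in Con too, by less than 2-fold on the log2(FPKM + 1) scale (-0.66, limma adjusted p 1.39e-06).

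The differences of Smc1b between small molecules stayed under 2-fold on the log2(FPKM + 1) scale. At 24 h V580 against Con had a log2 fold change of 0.98 (SE 0.0725, limma adjusted p 1.31e-07) and Vc against Con of 0.57 (adjusted p 0.000201). V580 against AM580, the pair that differs by vitamin C, had 0.67 at 24 h (adjusted p 3.53e-05) and 0.60 at 48 h (adjusted p 4.71e-05). With edgeR on fragment counts recovered from the FPKM values, an alternative added after the data were seen, Smc1b was called higher with V580 than with Con at 24 h and at 48 h (log2 fold change 1.52 at both times), where 3.06% and 8.82% of all genes were called, and with Vc than with Con at 48 h (1.30, where 0.725% were called). It was also higher with V580 than with AM580 at 48 h (1.70, where 1.37% were called). By the same test Rec8 was the 1 of 5 members called with AM580 against Con at 48 h (1.39, where 8.69% were called). At 24 h 0 of 5 were called for Vc against Con (0.805% of all genes), AM580 against Con (1.52%) and V580 against AM580 (0.933%). Between 24 h and 48 h it called 3 members in Con, Rec8, Smc1b and Sycp3 (17.2% of all genes), and 2, Rec8 and Smc1b, with AM580 (17%) and with V580 (17.6%). The log2 fold change of Smc1b between these times was -1.715 in Con, -2.429 with AM580 and -1.715 with V580. Dazl moved the same way as Smc1b between the groups at 24 h, with a mean of 12.2 FPKM in Con, 21.8 with Vc, 15.9 with AM580 and 26.6 with V580. Its part in the values of Smc1b was not tested.

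Sycp3 had 1.93 and 1.48 FPKM in Con at 24 h, 3.19 and 3.13 with Vc, 2.54 and 2.70 with AM580, and 3.45 and 4.28 with V580, and at 48 h 4.18 and 4.40 in Con, 5.35 and 3.82 with Vc, 2.62 and 2.09 with AM580, and 3.36 and 3.08 with V580. Con was the lowest group at 24 h, whereas AM580 and V580 lay below Con at 48 h. With V580 against Con at 24 h Sycp3 was under 2-fold in limma (log2 fold change 0.85, adjusted p 0.000104), whereas it was called with a pseudocount of 0.1 (1.14) and by edgeR on recovered fragments (1.20, adjusted p 0.000294). The effect against Con was called different between 48 h and 24 h for AM580 (log2 difference -1.09, SE 0.172, limma adjusted p 0.000233) and V580 (-1.17, SE 0.172, adjusted p 0.000121), where 1.9% and 1.83% of all genes were called, and not for Vc (-0.56, adjusted p 0.105; 0.0376% of all genes). With edgeR on recovered fragments Sycp3 was called in the same direction for AM580 (-1.46; 5% of all genes called) and V580 (-1.58; 5.36%), and 0 of 5 members for Vc (0.311%). Chpt1, which overlaps Sycp3, was between 0.816 and 1.38 FPKM in these 16 libraries.

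Dmc1 was not called for any small molecule, and Sycp2 was near the limit of detection. Dmc1, the meiotic recombinase, had a mean of 4.04 FPKM in Con at 24 h (SD 0.332, n = 2), 4.02 with Vc, 5.61 with AM580 and 5.66 with V580, and at 48 h 6.71, 7.91, 6.71 and 8.92 FPKM in the same order. None of its differences from Con reached 2-fold. Sycp2 stayed between 0.111 and 0.248 FPKM in all 16 libraries, and its differences from Con had exact permutation p values of 0.333 or more, where 0.333 is the smallest that 2 against 2 libraries allow. Of the 13 other meiotic prophase genes tested, 0 were called against Con at 24 h with any small molecule, and at 48 h 1 was lower with AM580. At 48 h 6 of 8 genes of the retinoic acid response were higher with AM580 and 5 of 8 with V580.

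Over the V580 days, Rec8 was highest at day 4 and lower at each later day, above E12.5_GC at first and below it at last. Dmc1, Sycp3, Smc1b and Sycp2 were at low levels throughout. The test was the same limma fit on the 15 libraries of the V580 days and E12.5_GC over 11512 genes, in which Rec8, Dmc1 and Sycp3 passed the filter of 1 FPKM in 3 libraries, and Smc1b and Sycp2 did not.

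**Figure D3:**
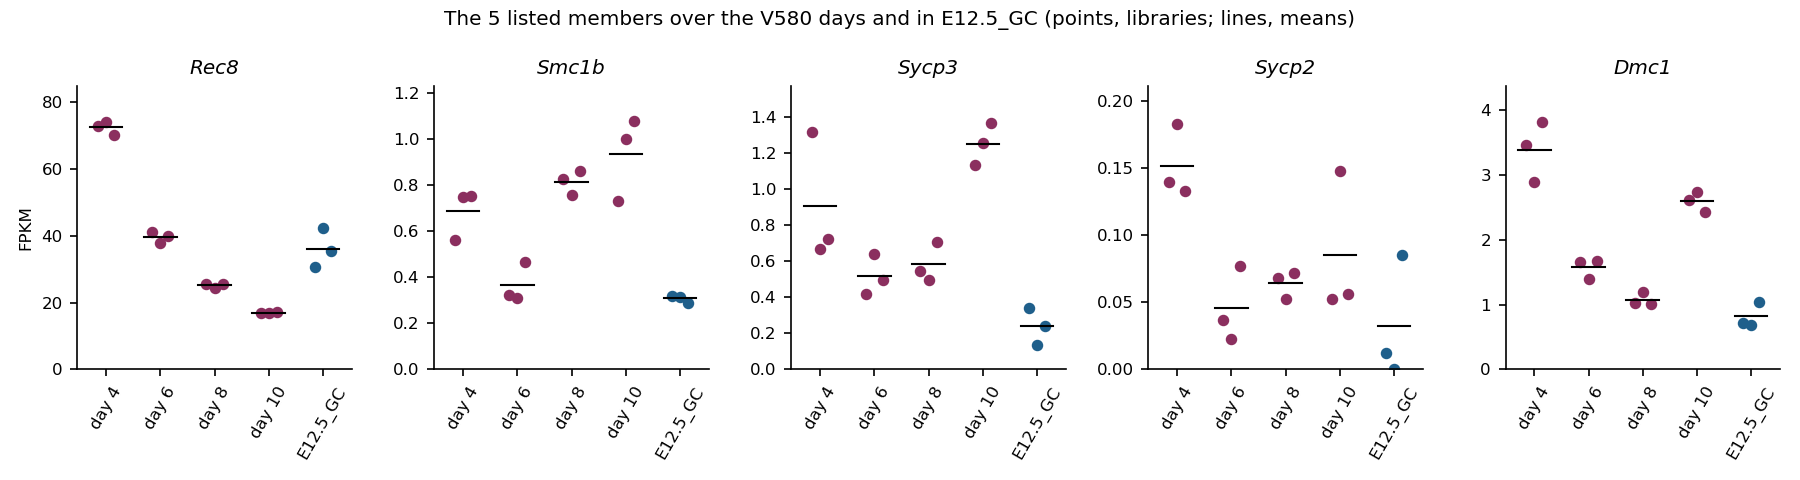
FPKM of Rec8, Smc1b, Sycp3, Sycp2 and Dmc1 (panels, each with its own vertical axis from 0) in V580 cells at day 4, 6, 8 and 10 and in E12.5_GC; points are the 3 libraries of a group and lines their mean. Rec8 steps down from 70.3 to 74.3 FPKM at day 4 to 16.8 to 17.4 at day 10, with E12.5_GC at 30.7 to 42.4.

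Rec8 had 72.9, 74.3 and 70.3 FPKM on day 4 and 41.1, 37.9 and 40.1 on day 6, then 25.6, 24.4 and 25.7 on day 8 and 16.8, 17.0 and 17.4 on day 10. E12.5_GC had 30.7, 42.4 and 35.4 FPKM. The 4 days did not overlap one another, and only day 6 overlapped E12.5_GC. Rec8 was lower at day 10 than in E12.5_GC (log2 fold change -1.03, SE 0.0860, limma adjusted p 6.02e-08), the 1 of 3 members called, where 16.4% of all genes were called. This call was not made without E12.5_GC library 2 (log2 fold change -0.91). At day 4 the difference of Rec8 from E12.5_GC was just under 2-fold (0.99, SE 0.0860, adjusted p 7.34e-08). The steps from day 4 to 6 (-0.85, adjusted p 1.54e-06), from 6 to 8 (-0.63, adjusted p 4.43e-05) and from 8 to 10 (-0.54, adjusted p 0.000281) were each under 2-fold, so that 0 of 3 members were called at each step, where 5.08%, 2.55% and 1.29% of all genes were; without the 2-fold requirement 3, 2 and 3 were, beside 44.9%, 41.1% and 34.5% of all genes.

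Dmc1 had 3.46, 2.89 and 3.82 FPKM at day 4, a mean of 1.58 at day 6 (SD 0.15, n = 3) and 1.08 at day 8 (SD 0.107), and 2.62, 2.74 and 2.43 FPKM at day 10. E12.5_GC had 0.724, 0.683 and 1.05 FPKM. Day 4 and day 10 lay above all other groups. Dmc1 was higher at day 4 than in E12.5_GC (log2 fold change 1.27, SE 0.0909, limma adjusted p 8.34e-09), the 1 of 3 members called, where 20.4% of all genes were called. At day 10 its difference was just under 2-fold (0.99, adjusted p 1.82e-07). At day 6 and day 8, 0 of the 3 were called, where 15.2% and 13% of all genes were; without the 2-fold requirement 2 were called at each, beside 67% and 63.2% of all genes, and edgeR on recovered fragments called 1 and 2 of 5. At an unadjusted p below 0.05, Dmc1 (p 6.72e-05) and Sycp3 (p 0.0186) at day 6 and Rec8 (p 5.11e-05), Sycp3 (p 0.00609) and Dmc1 (p 0.048) at day 8 differed from E12.5_GC in limma.

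Sycp3 had 1.32, 0.671 and 0.726 FPKM at day 4 and 1.14, 1.26 and 1.37 at day 10, against 0.342, 0.135 and 0.242 in E12.5_GC. Its mean was 0.518 FPKM at day 6 and 0.584 at day 8. All 12 V580 libraries were above the 3 of E12.5_GC, with log2 fold changes under 2-fold at every day (0.29 to 0.86). The values in E12.5_GC rest on 12, 4 and 6 recovered fragments. Chpt1 had a mean of 6.94 FPKM in E12.5_GC and, from day 4 to day 10 in turn, of 2.64, 6.63, 6.26 and 7.90 FPKM.

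Smc1b had 0.564, 0.749 and 0.752 FPKM on day 4 and 0.325, 0.311 and 0.466 on day 6, then 0.827, 0.757 and 0.864 on day 8 and 0.732, 1.00 and 1.08 on day 10. E12.5_GC had 0.32, 0.316 and 0.290 FPKM. Day 4, 8 and 10 lay above E12.5_GC without overlap and day 6 overlapped it. The exact permutation p of each of these 3 differences was 0.1, the smallest that 3 against 3 libraries allow, and 0.286 after adjustment over the 20 comparisons of Smc1b and Sycp2. Sycp2 had a mean of 0.152 FPKM at day 4 (SD 0.0271, n = 3) and of 0.0326 in E12.5_GC (SD 0.0463), where its 3 libraries held 2, 0 and 10 recovered fragments.

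On recovered fragments, which keep the low members in the test, edgeR called 4 of 5 members higher at day 4 than in E12.5_GC (31.7% of all genes called), Dmc1 (log2 fold change 2.06), Sycp2 (2.36), Sycp3 (1.86) and Smc1b (1.15). At day 10, 3 were higher, Sycp3 (2.36), Dmc1 (1.71) and Smc1b (1.62), and Rec8 was lower (-1.06), where 26.8% were called. At day 6 Sycp3 alone was called (1.08, where 25.4% were called), and at day 8 Smc1b (1.42) and Sycp3 (1.28, where 22% were called). From day 4 to 6, Dmc1 (-1.09) and Sycp2 (-1.69) were lower (12.2% of all genes called). From day 6 to 8, Smc1b (1.17) was higher (7.39%), and from day 8 to 10, Dmc1 (1.27) and Sycp3 (1.08) were higher (4.73%). Of the 12 other meiotic genes tested by limma, 2 were higher than E12.5_GC at day 4, 0 at day 6 and 1 at each later day. Called were Hsf2bp (log2 fold change 1.43) and Rec114 (1.05) at day 4, and Stag3 at day 8 (1.30) and day 10 (2.03). Of 6 germ cell markers tested, 5 were higher at day 4, and the mean of Ddx4 was 9.29 FPKM at day 4 and 6.93 at day 10 against 0.610 in E12.5_GC. Their part in the members' values was not tested.

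In the single-cell library of V580 day 6, Rec8 was detected in the most cells and Stra8 was concentrated in a few. Of 15412 barcodes 15315 were kept, with a median of 9281 UMIs (unique molecular identifiers, which count molecules) in a cell. The study describes sequencing of these cells in triplicate, and whether the sample used here is a single run or a pool is not given in the sources used here. It was read as 1 sample with no replicate, so that no test was made, and intervals are exact 95% intervals that cover counting error only. Rec8 had 4557 UMIs in 2715 cells (17.7%, interval 17.1 to 18.3%). Stra8 had 3369 UMIs in 806 cells (5.26%, interval 4.91 to 5.63%), fewer cells than Sycp3 (1190 cells, 7.77%) and about as many as Dmc1 (807 cells, 5.27%), which had 878 UMIs. Sycp1 was detected in 3.76% of cells, Smc1b in 2.78%, Hormad1 in 1.02%, and Sycp2 and Tex12 in 0.633% each. Spo11 had 4 UMIs in 4 cells.

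**Figure D4:**
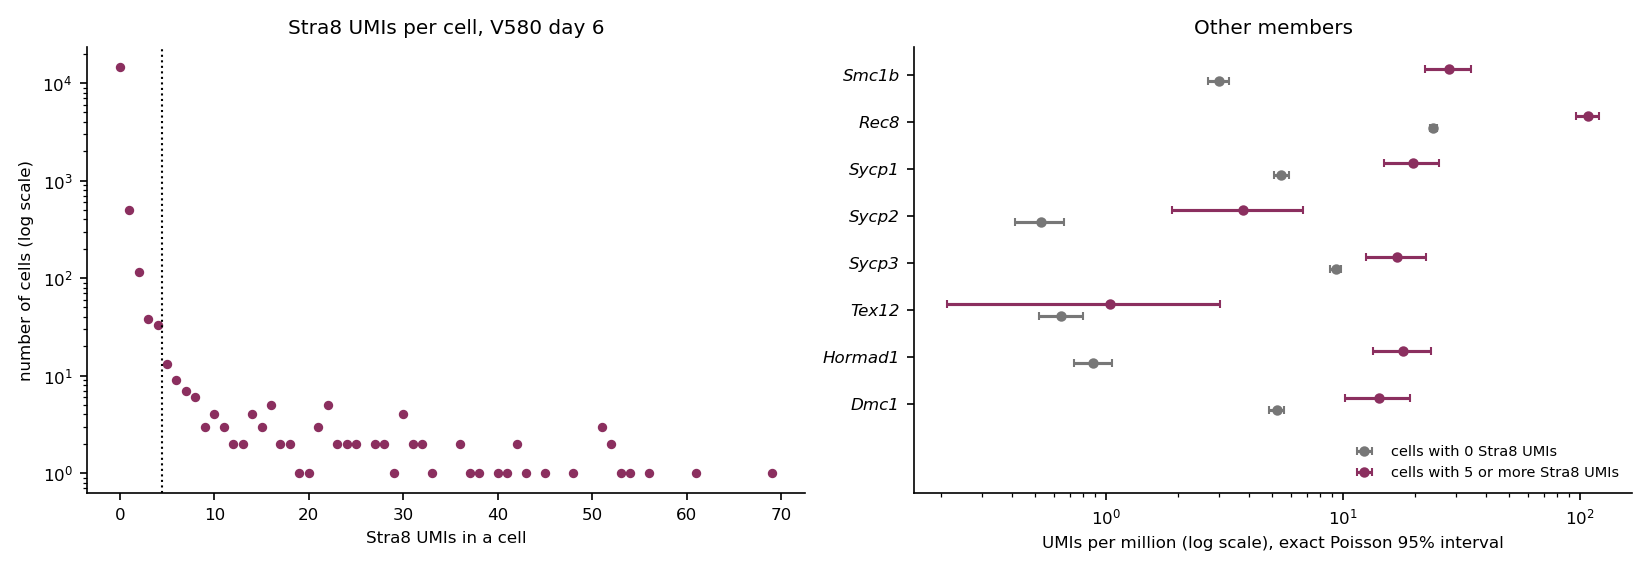
Left, number of V580 day 6 cells (log scale) by their Stra8 UMIs, with a dotted line before 5 UMIs; right, UMIs per 1000000 UMIs of 8 other members (log scale, exact Poisson 95% intervals) in the 115 deep cells with 5 or more Stra8 UMIs and in the 8420 with 0. Counts of Stra8 reach 69 in a cell, and Rec8 (108 against 24) and Smc1b (27.9 against 2.98) are among the members that are higher in the Stra8-rich cells.

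The Stra8 UMIs were unevenly spread. Of the 806 cells, 504 held a single UMI, whereas 116 cells with 5 or more held 70.9% of all Stra8 UMIs and 78 cells with 10 or more held 63.7%. The highest count in a cell was 69. At the 5-UMI limit, which was chosen after the counts were seen, 33 cells held 4 UMIs and 13 held 5. The cells with 5 or more had a median of 20352 UMIs in all, against 8837 in the cells with no Stra8. No doublet caller was run, and the part of doublets in these cells was not tested.

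To compare cells of unequal depth, the 9077 cells with at least 5000 UMIs were thinned to 5000 UMIs each, and 6238 shallower cells were left out. Cells were then grouped by how many markers of a list they showed, with at least 3 required. Stra8 was detected in 18 of the 83 cells passing for germ cell markers (21.7%, interval 13.4 to 32.1%; 28.9% without thinning), in 30 of 126 passing for pluripotency markers (23.8%, interval 16.7 to 32.2%), in 39 of 1103 passing for extraembryonic endoderm markers (3.54%), in 25 of 1761 passing for gonadal somatic markers (1.42%, interval 0.921 to 2.09%) and in 13 of 1484 passing for mesenchymal markers (0.876%). In UMIs per 1000000, from the unthinned counts and in the same order, this was 366, 347, 11.4, 2.80 and 1.99. The median depth was 16533, 20109, 19219, 13766 and 14206 UMIs in the 5 groups. Rec8 differed much less between them, with 41.9, 35.4, 18.6, 20.5 and 13.6 UMIs per 1000000.

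Among the 115 deep cells with 5 or more Stra8 UMIs, 30 passed for pluripotency markers, 15 for germ cell markers, 7 for extraembryonic endoderm markers and 0 for gonadal somatic or mesenchymal markers, and the groups may overlap. Most of the 115 cells passed for none of these lists. Among the 271 with 2 or more Stra8 UMIs the numbers were 38, 21 and 43, with 12 for gonadal somatic and 6 for mesenchymal markers, so that the counts depended on the limit. Wt1 was detected in 13% of the 115 cells after thinning, against 54.7% of the 8420 deep cells with no Stra8, and Dazl in 27.0% against 1.60%. Foxl2, a marker of pregranulosa cells, had 8 UMIs in 8 of the 115 cells before thinning (2.76 UMIs per 1000000, against 1.70 in the cells with no Stra8), none of which was drawn in the thinning.

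Other members were more often detected in the Stra8-rich cells. After thinning, Rec8 was found in 28.7% of them (interval 20.6 to 37.9%) against 10.3% of the cells without Stra8 (9.62 to 10.9%), and Smc1b in 13.9% (8.17 to 21.6%) against 1.28% (1.05 to 1.55%). Hormad1 was found in 5.22% against 0.463%, Sycp1 in 8.70% against 2.40%, and Dmc1 in 8.70% against 2.52%. Sycp2 was found in 2.61% (0.541 to 7.44%) against 0.178% (0.0997 to 0.294%). Sycp3 was found in 7.83% against 3.86% and Tex12 in 0.870% against 0.273%. As for Hormad1 and Sycp2, these shares rest on few of the 115 cells. The cells are of 1 library and are not replicates, so the intervals do not test these differences. Spo11 was detected in 0 of the 115 cells. The general cohesin subunit Smc1a was found in 53.0% against 59.2%.

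Members were seldom detected together in the thinned cells. Stra8 itself set the groups and was left out of this count. After thinning, 2 or more of the other 9 members were found in 22 of the 115 Stra8-rich cells (19.1%, interval 12.4 to 27.5%) and in 142 of the 8420 cells without Stra8 (1.69%, interval 1.42 to 1.99%), and 3 or more in 6 (5.22%) and 3 (0.0356%). With Stra8 counted, 0 of the 9077 cells showed 5 or more after thinning. Thinning lowers detection, for Rec8 from 26.98% to 11.28% of these cells, and the count without thinning was not made.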

How the data were processed

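Gonadal somatic cells of 4 stages (8 libraries) were analysed from the read counts per gene that the authors deposited, made against mouse build mm10 with HISAT2 and featureCounts per the labels and methods. GSCLCs and E12.5_GC (31 libraries) were analysed from FPKM values that the authors computed and deposited, and 10 further columns of that table matched no sample and were not used. The single-cell UMI counts were used as deposited. The strand setting of the counting is not given in the sources used here.

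Counts were tested with edgeR 4.0.16 (TMM factors, filterByExpr, quasi-likelihood F test) in R 4.3.3, with DESeq2 1.42.0 as an alternative, and FPKM with limma 3.58.1 (trend) on log2(FPKM + 1) after a filter of at least 1 FPKM in 3 libraries (days) or 2 (small molecules). P-values were adjusted by Benjamini-Hochberg over all genes tested. No sources say that the libraries of a group were separate animals or cultures, so p-values measure the spread between these libraries. Exact tests and intervals used SciPy 1.17.1 and pandas 2.3.3 under Python 3.11.15. The edgeR and limma steps were tested on simulated data with known changes. Replicate libraries differed by more than sampling noise (chi-square per degree of freedom 5.80 to 35.7 in the stage counts), so none was merged.

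Whole fragments were recovered from the FPKM values with annotated gene lengths, with an implied depth of 16442000 to 28311000 fragments, and 95.9 to 98.2% of values came out whole within 0.05 fragments. Barcodes were kept from 200 genes upward and up to a mitochondrial share of 40%; no clustering was made and no doublet caller was run. Promoters were taken from RefSeq (GRCm38.p6), searched on both strands.

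The members and the gene lists were chosen with earlier results of these data known. All members are given. Of each other list at most the 4 called genes with the largest change in a contrast are named. Marker and counterpart genes named beside a member come in addition. Stag3 in the stages, Trip13, and Tex101, Mael, Nanos3 and Dnd1 among the germ cell markers were named after their values were seen. Chpt1 was named for its overlap with Sycp3. Alternatives covered normalization, filters, pseudocount, fold requirement, gene length, the replicate number as a block, and each library left out.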

Additional observations from a re-analysis of the deposited data

Results flagged for a closer look

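For 2 members the effect of a small molecule against Con differed between 24 h and 48 h by a test of the difference itself (limma interaction term, 2 libraries per group). Sycp3 was higher with AM580 than in Con at 24 h by a log2 fold change of 0.42 and lower at 48 h by -0.66, a difference of -1.09 (adjusted p 0.000233). With V580 its values were 0.85 at 24 h and -0.33 at 48 h, a difference of -1.17 (adjusted p 0.000121). Rec8 with V580 went from 0.28 at 24 h, which was not called, to 1.37 at 48 h, a difference of 1.09 (adjusted p 0.000121). All of these effects share the Con libraries. Without AM580 library 2 of 48 h the Sycp3 difference for AM580 was -0.97, and without Con library 2 of 24 h it was -0.96, both under the 2-fold requirement. The Rec8 difference for V580 was 0.92 without Con library 2 of 24 h. For AM580 the Rec8 difference was 0.85 (adjusted p 0.000959), which was not called, and it was called without AM580 library 1 of 24 h (1.03) or Con library 1 of 24 h (1.02). Leaving out each library gave 0 to 2 members called for AM580 and 1 to 2 for V580.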

How the results depend on the processing

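In the stages, the number of members called stayed within 1.5 times its value under every alternative tried. Leaving out each library gave 5 to 6 members (E13.5 against E12.5), 9 to 10 (E16.5 against E12.5, and against E13.5), 2 to 3 (P6w against E12.5), 6 to 7 (P6w against E13.5) and 10 (P6w against E16.5). Single calls that were lost are Rec8 in both comparisons of E16.5 with an earlier stage when 2-fold was required, Stra8 at P6w against E12.5 with DESeq2 (adjusted p 0.0538), and Tex12 at P6w against E13.5 with a gene length term.

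The FPKM counts depended on how low values were weighed, and pseudocount, fold requirement and test each change that by construction. With a pseudocount of 0.1 the members called against E12.5_GC were 3 at day 4 (27.3% of all genes), 1 at day 8 (18.3%) and 3 at day 10 (22.7%), and 1 from day 4 to 6 (9.16%) and 1 from day 8 to 10 (3.01%). Without the fold requirement they were 3 (day 4), 2 (day 6), 2 (day 8) and 3 (day 10), and 3, 2 and 3 for the consecutive steps, beside 71.6%, 67%, 63.2% and 69.5%, and 44.9%, 41.1% and 34.5%, of all genes. With edgeR on recovered fragments, added after the data were seen, they were 4, 1, 2 and 4, and 2, 1 and 2 for the steps. Leaving out each library gave 1 to 2 at day 4 (2 without E12.5_GC library 2 or V580 day 4 library 3) and 0 to 2 at day 10 (0 without E12.5_GC library 2, and 2 without E12.5_GC library 3 or V580 day 10 library 3).

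For the small molecules, a pseudocount of 0.1 gave 2 members (V580 against Con) at 24 h (2.06% of all genes), and at 48 h 1 (Vc against Con; 0.385%), 2 (V580 against Con; 6.29%) and 1 (V580 against AM580; 0.78%), with 3 for Con at 48 h against 24 h (13.2%). Without the fold requirement the counts at 24 h were 2 (Vc), 3 (AM580), 3 (V580) and 2 (V580 against AM580), at 48 h 1, 2, 4 and 2 in the same order, and 4 for Con between the times. The shares of all genes were then 13.6%, 14.8%, 29% and 14.8% at 24 h, 12.4%, 57%, 57.1% and 19.2% at 48 h, and 66%. With edgeR on recovered fragments they were 2 (V580 against Con, 24 h), 1 (Vc, 48 h), 2 (V580, 48 h), 1 (V580 against AM580, 48 h) and 3 (Con between the times). Leaving out each library gave 0 to 1 for V580 against Con at 24 h (1 without V580 library 2 of 24 h), 1 to 2 for Con between the times (2 without Con library 1 of 24 h or of 48 h) and 1 to 2 for AM580 between the times (1 without AM580 library 2 of 24 h or of 48 h). The interaction of Smc1b with V580 had a log2 difference of -0.43 on log2(FPKM + 1) and of 0.000795 with edgeR on recovered fragments. Its mean was 3.17 FPKM with V580 and 1.11 in Con at 24 h, and 0.957 and 0.339 at 48 h. The log2(FPKM + 1) scale understates changes at low FPKM, and its part in the -0.43 was not tested.

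Same-numbered libraries did not deviate together (correlations of -0.04 to 0.067 in the stages, -0.431 to 0.386 over the days and -0.424 to 0.209 for the small molecules), so the numbers were not taken as pairs. With the replicate number as a block, 6 members were called at E13.5 against E12.5 (5 without it), and the counts of all other comparisons were as without it, for example 10 at E16.5 against E12.5. Depth limits Sycp2 and Sycp3 in E12.5_GC, which rest on 12 and 22 recovered fragments in all, and Spo11 in single cells. A stricter filter on cells (1000 genes or more, mitochondrial share up to 10%) raised the share of cells with Stra8 to 6.63%.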

Other observations

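The genes that led the Stra8-rich cells of V580 day 6 were read after their values were seen, and the 115 deep cells with 5 or more Stra8 UMIs were set against the 8420 with 0. Dppa5a, a pluripotency-associated gene, had 1424 against 28.7 UMIs per 1000000 UMIs. In the same unit, Dppa3, which protects the maternal genome from demethylation, had 62.7 against 0.301, Nanog 57.8 against 0.698, and Sox2 82 against 3.87. 1700013H16Rik, one of the 10 genes that followed the members most closely over the stages, had 63.7 against 0.470. These cells are of 1 library, so the values have no replicate check.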
